A study of Mus musculus with 2 samples.

Results

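The HoxD cluster on mouse chromosome 2 lies between a pair of gene deserts, long stretches without a coding gene, and the DNase-seq peaks inside those deserts are described here. DNase-seq cuts nuclei with DNase I and sequences the cut ends, so that a peak marks DNA that is open to the enzyme. A peak was taken as a member when its centre lay in the centromeric desert (mm10 chr2:73911327-74520290, between Atp5g3 and Lnpk) or in the telomeric desert (chr2:74878432-75659260, between Mtx2 and Hnrnpa3). That gave 205 of 208674 peaks in replicate 1 and 215 of 196593 in replicate 2, 420 of 405267 in all. The series has 1 group: limb tissue of B6NCrl mouse embryos, taken at 14.5 days with males and females pooled, in 2 libraries that the labels call biological replicates 1 and 2. No other tissue, stage, genotype or treatment was used here. The labels give both libraries the same donor identifier but separate biosamples, so the spread between them may be partly technical. They do not say which limbs were taken, and bulk tissue cannot tell a site open in a few cells from a site weakly open in many. The lists give no read counts, so the depth is unknown and a peak that is missing means only that it was not called in that library.

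HoxD genes encode homeodomain proteins that pattern the limb from shoulder to digit. The telomeric desert is known for enhancers used in the early limb and in the forearm, and the centromeric desert for enhancers used in the digits. Each desert lies in its own domain of chromatin contacts, and the cluster sits at the boundary between them. CTCF is the DNA-binding protein at such boundaries, and its site has a direction: loops are known to form mostly between sites that point towards each other.

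Peaks found in both libraries are called recurrent here: a peak of the other library had to cover at least 50% of its length. Among the 54 recurrent centromeric peaks, 4 held a match to the CTCF core, each a single site, and all 4 read on the plus strand, towards HoxD. The sites are printed 5′ to 3′ in the direction of the motif because that direction is the result; capitals mark the 13 bases matched and lower case the 8 bases on each side.
chr2:73925244-73925256 plus: gagagtacCCACTTGGGGGCAcccacaat
chr2:73965790-73965802 plus: ctctaccaCCAGCAGAGGGAGccctgaga
chr2:74027921-74027933 plus: ttggtggcCCAGTAGATGGCAgcctgccc
chr2:74300448-74300460 plus: aacaatgaCCAGTAGGTGGCGgtccagcc

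Among the 85 recurrent telomeric peaks, 8 held a CTCF match, and 7 of the 8 read on the minus strand, which from that side is again towards HoxD. The only site that read the other way lay 727 kb from the edge nearest HoxD. Distance did not set it apart, since a site that faced the cluster lay 712 kb from the same edge.
chr2:74964538-74964550 minus: aggagcctCCAGCAGGGGGCAcccttttg
chr2:75055364-75055376 minus: gtatttggCCACTAGGTGGCActgttggt
chr2:75138090-75138102 minus: cagggtgtCCACTAGGGCGCGctgtgaga
chr2:75151172-75151184 minus: cttcttcaCCACCAGGTGGCGccctttgt
chr2:75152691-75152703 minus: gcctcagtCCACTAGAGGGCGctttccca
chr2:75318393-75318405 minus: aaaattgaCCACTAGATGGAGccttgtgg
chr2:75590412-75590424 minus: gatcgtgtCCACTAGGTGGCGcgcatggg
chr2:75605885-75605897 plus: cactactaCCACTAGCTGGCGccaaagct

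In all, 11 of 12 matches (91.7%, exact 95% interval 61.5 to 99.8%, sampling of sites only) read towards the cluster. Over all recurrent peaks of the genome, 8456 of 17129 CTCF matches (49.4%) were on the plus strand. That share shows only that the search did not favour a strand. It is no background for matches that face a locus from both sides, which was not computed for other stretches. With no mismatch allowed, 2 of 2 centromeric and 5 of 5 telomeric matches faced the cluster. In the 358 kb between the deserts, which holds the cluster itself, 3 recurrent peaks had a match, 1 on the plus and 2 on the minus strand. The comparison of strands was made after the matches had been seen, and no test was run on it.

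The peaks with a CTCF match were mostly among the stronger members. The strongest was chr2:73925216-73925365 on the centromeric side, with a peak signal (the authors' value, a whole number of unstated scale) of 107 in replicate 1 and 77 in replicate 2, and on the telomeric side chr2:74964476-74964625, with 105 and 86. The weakest, chr2:75318336-75318485, had 34 and 22. Ranked as a percentile within its own list and averaged over the libraries, the signal of peaks with a match had a median of 88.6 in the centromeric desert against 49.3 for the other recurrent peaks there, and 83.9 against 63.4 in the telomeric desert. The shares of peaks with a match were below those elsewhere, a difference that was not tested: 7.41% of the centromeric and 9.41% of the telomeric recurrent peaks had one, against 13.1% of all 127632 recurrent peaks and 15.3% of those over 1 kb from any transcription start site (TSS). In windows of the same length 1 kb beside all recurrent peaks the share was 1.11%. Beside the desert peaks it was 2 of 54 (3.70%) on the centromeric side and 0 of 85 on the telomeric side.

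**Figure D1:**
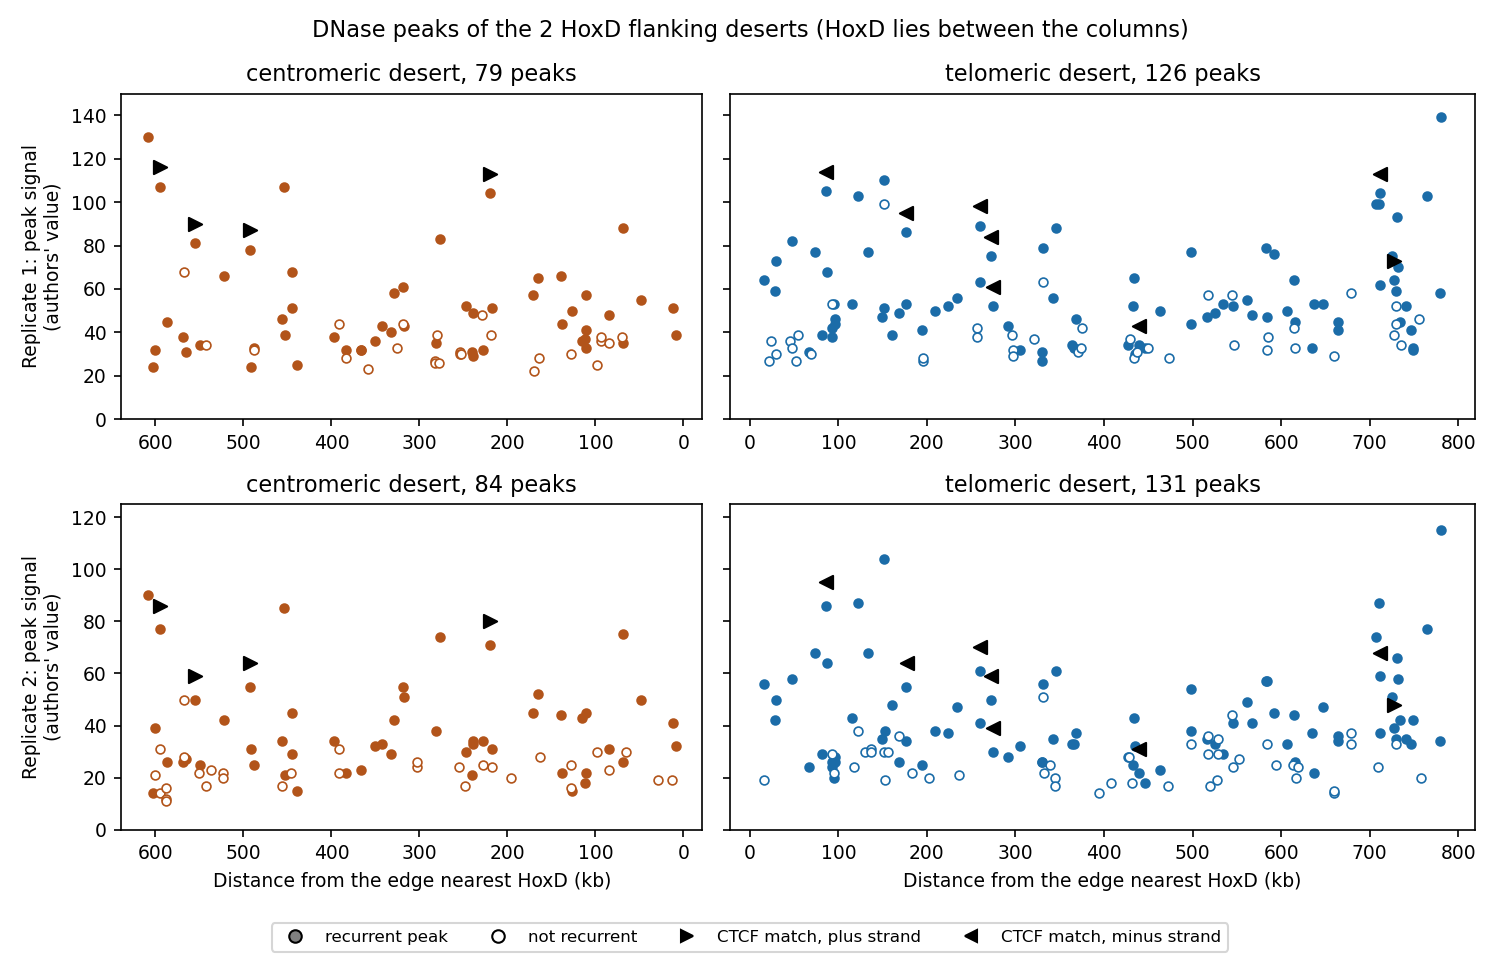
Signal of every desert peak (vertical axis, authors' value) against its distance in kb from the desert edge nearest HoxD, with replicate 1 above and replicate 2 below; filled points recurred, open points did not, and arrowheads drawn above a peak give the strand of its CTCF match. The 4 centromeric arrowheads and 7 of the 8 telomeric ones point towards the gap between the columns, where HoxD lies.

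The telomeric desert was more densely filled in both libraries. In replicate 1 the centromeric desert (609 kb) held 79 peaks, or 13.0 per 100 kb, and the telomeric desert (781 kb) held 126, or 16.1 per 100 kb. In replicate 2 they held 84 and 131, or 13.8 and 16.8 per 100 kb. The ratio of the densities was 1.23 ± 0.02 (SD, n = 2 libraries), and the gap between the deserts was larger than that between the libraries. With 2 libraries an exact paired permutation test cannot go below p = 0.5, so this and the other differences between the deserts are given as values without a test.

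Among all 657 stretches of at least 500 kb between neighbouring coding genes on the autosomes and X, the telomeric desert ranked 12 for peak density, averaged over the libraries, and the centromeric desert ranked 30. The median stretch held 3.46 peaks per 100 kb and the densest, between Ubash3b and Sorl1, held 23.5. The deserts around Sox9, the master regulator of cartilage, were sparser than the telomeric HoxD desert: 8.50 and 8.09 peaks per 100 kb upstream and 13.3 and 12.9 downstream, in replicates 1 and 2. The stretch between the deserts, which runs from Lnpk through Evx2 and the HoxD genes to Mtx2, was denser than both, with 23.7 and 21.2 peaks per 100 kb.

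**Figure D2:**
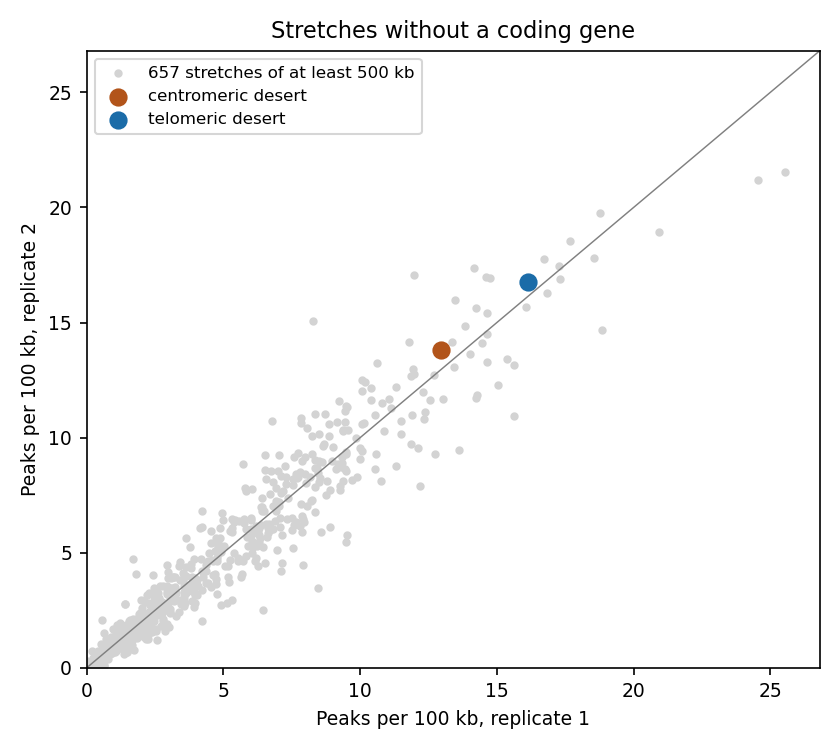
Peaks per 100 kb in replicate 1 (horizontal axis) and replicate 2 (vertical axis) for each of the 657 stretches without a coding gene, with the line of equal values. The telomeric desert (16.1 and 16.8) and the centromeric desert (13.0 and 13.8) lie towards the dense end, with the telomeric one farther out in both libraries.

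Neither desert emptied with distance from HoxD. Cut into 4 equal parts from the HoxD side outwards, the centromeric desert held 20, 22, 21 and 16 peaks in replicate 1 and 20, 19, 19 and 26 in replicate 2. The telomeric desert held 35, 29, 27 and 35 in replicate 1 and 38, 24, 33 and 36 in replicate 2, with fewest peaks in its middle parts. The nearest member to the cluster lay 15.8 kb inside the telomeric edge (chr2:74894176-74894325, signals 64 and 56). On the centromeric side it lay 8.36 kb inside the edge in replicate 1 (chr2:74511856-74512005, signal 39) and 8.38 kb inside in replicate 2 (chr2:74511836-74511985, signal 32).

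Along the telomeric desert the counts of the 2 libraries rose and fell together in part. Over 16 bins of 50 kb, of which the last was shorter (750 to 781 kb), the counts per bin had a Pearson r of 0.70 and a Spearman correlation of 0.60 between libraries. The fullest bin, 700 to 750 kb from the HoxD edge, held 18 peaks in replicate 1, 14 of them recurrent, and 15 in replicate 2, 13 of them recurrent. The second fullest in replicate 1, 50 to 100 kb from that edge, held 14 and 12. Over the 13 centromeric bins, of which the last ran only from 600 to 609 kb, r was 0.38 and the Spearman correlation 0.37. The largest disagreement there was the bin 550 to 600 kb from HoxD, with 6 peaks in replicate 1 and 13 in replicate 2.

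**Figure D3:**
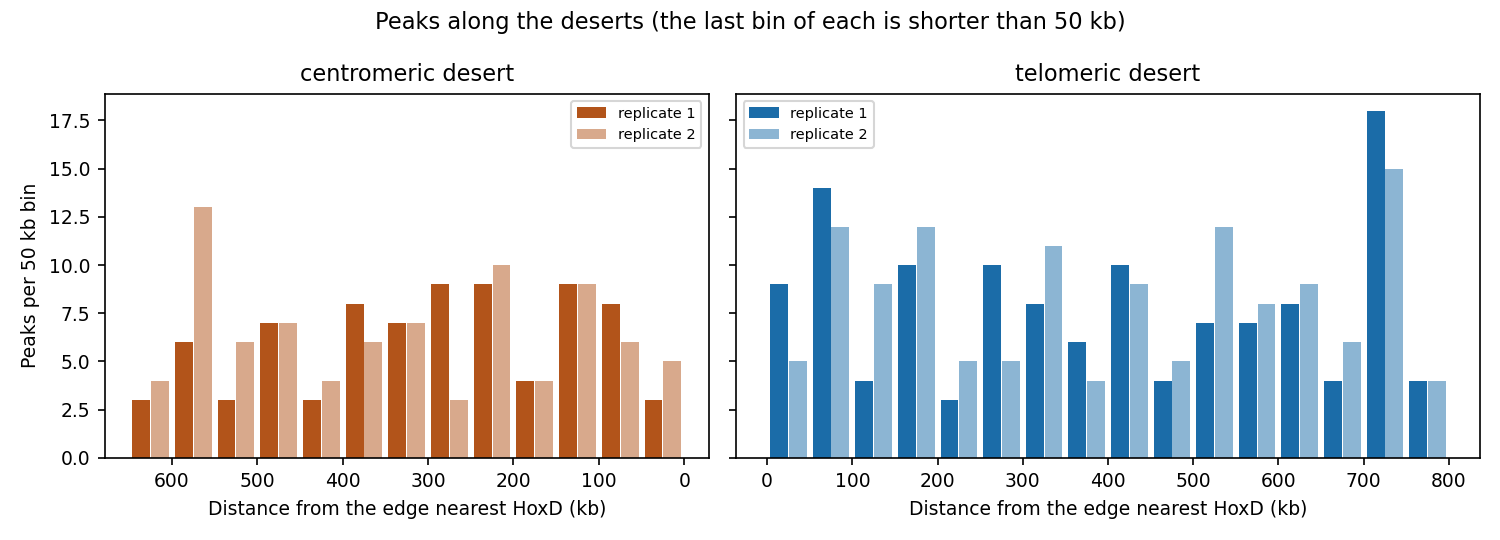
Peaks per 50 kb bin (vertical axis) against distance in kb from the desert edge nearest HoxD, dark bars for replicate 1 and pale bars for replicate 2. The last bin of each desert is shorter than 50 kb. The bin at 700 to 750 kb of the telomeric desert is the fullest in both libraries (18 and 15 peaks), and the centromeric bin at 550 to 600 kb differs most (6 and 13).

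Neighbouring peaks stood closer in the telomeric desert. The median step from centre to centre was 4040 and 4180 bp in the centromeric desert and 3300 and 2750 bp in the telomeric desert, in replicates 1 and 2, a ratio of 0.74 ± 0.11 (SD, n = 2). Over all peaks the median step was 3800 and 4200 bp. Some neighbouring peaks overlapped, with steps under 150 bp: 6 and 3 in the centromeric and 3 and 3 in the telomeric desert. Each was counted as a separate peak throughout, also in the chains below, and overlapping peaks could share a partner in the other library. Steps of at most 2 kb made up 41.0% and 41.0% of the centromeric and 40.8% and 41.5% of the telomeric steps, against 40.9% and 39.0% over all peaks, so short steps were about as common in each desert as elsewhere.

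Chains of at least 3 peaks with steps of at most 2 kb numbered 8 and 9 in the centromeric and 14 and 13 in the telomeric desert. Such chains were not counted over all peaks. The longest chain was telomeric: 7 peaks of replicate 1 within 4.25 kb (chr2:75605576-75609825), with signals of 39 to 93, of which 4 recurred. Replicate 2 had 5 peaks in the same interval. Its own longest chain, 5 peaks within 2.65 kb (chr2:75208376-75211025), lay in an intron of the long noncoding RNA gene 2600014E21Rik, where replicate 1 had 4 peaks. No centromeric chain held over 4 peaks: replicate 1 had such chains at chr2:74238496-74240005 and chr2:74408856-74410125, and replicate 2 at chr2:73932116-73932945 and chr2:73951736-73954645.

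The longest stretch without a peak in either library was 41.9 kb in the centromeric desert (chr2:74081766-74123495) and 27.6 kb in the telomeric desert (chr2:75557626-75585075). Within single libraries the longest steps were 47.3 and 41.9 kb on the centromeric side and 52.4 and 27.7 kb on the telomeric side. The 52.4 kb step of replicate 1 (chr2:75253206-75305455) held 2 peaks of replicate 2, so it was not empty in both.

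Telomeric peaks also had the higher signals. In replicate 1 the centromeric signals ran from 22 through a median of 38 to 130 and the telomeric ones from 27 through 47 to 139. In replicate 2 they ran from 11 through 28 to 90 and from 14 through 33 to 115. The ranges overlapped almost fully and the difference lay in the middle of the distributions. As percentiles within each list, the centromeric medians were 42.7 and 41.7 and the telomeric medians 59.2 and 54.9, a difference of 14.8 ± 2.3 percentile points (SD, n = 2). With only peaks at or above the list median, a choice that itself removes the weaker peaks, the difference was −0.81 points. Peaks over 1 kb from any TSS had medians of 44.9 and 44.7, so centromeric peaks stood slightly below the typical distal peak and telomeric peaks above it.

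At or above their list's median signal were 33 of 79 (41.8%) and 36 of 84 (42.9%) centromeric peaks, and 78 of 126 (61.9%) and 75 of 131 (57.3%) telomeric peaks. The deserts were closer among peaks above the percentile of 90 in each list: 4 and 6 centromeric peaks (5.06% and 7.14%) and 10 and 9 telomeric peaks (7.94% and 6.87%), against 4.46% and 4.54% of all distal peaks. By the cut itself about 10% of all peaks of a list lie there, so both deserts stood below that share. The members include peaks at gene starts, which the distal share leaves out. Among the stretches of at least 500 kb with at least 20 peaks, the telomeric median percentile ranked 1 of 471 in replicate 1, tied with 1 other, and 16 of 470 in replicate 2. The centromeric one ranked 86 and 133.

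The strongest recurrent peak of each desert lay at its outer edge, at the start of a coding gene. At Atp5g3, which encodes a subunit of the mitochondrial ATP synthase, chr2:73911296-73911445 had signals of 130 and 90, centred 45 bp from the TSS and 0.044 kb inside the desert. At Hnrnpa3, which encodes an RNA-binding protein, chr2:75659036-75659185 had 139 and 115, centred 0.149 kb inside. Both are members by the position of the centre only. Just beyond the edges lay chr2:73910556-73910705 (51 and 43) at Atp5g3 and, at Hnrnpa3, chr2:75659736-75659885 (119, replicate 1) and chr2:75659236-75659385 (72, replicate 2). On the HoxD side the first peaks outside the centromeric desert were chr2:74547776-74547925 in replicate 1 (29) and chr2:74522096-74522245 in replicate 2 (18). Outside the telomeric desert they were chr2:74847576-74847725 (29) and chr2:74836336-74836485 (13).

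Away from gene starts, the strongest centromeric peak was chr2:74066776-74066925 (signals 107 and 85), 453 kb from the HoxD edge, and the strongest telomeric peak was chr2:75029396-75029545 (110 and 104), 151 kb from it. The next in order were the CTCF-matching chr2:73925216-73925365 (107 and 77), chr2:74300396-74300545 (104 and 71), in an exon of the long noncoding RNA gene 4930441J16Rik, and chr2:74451736-74451885 (88 and 75) on the centromeric side. On the telomeric side they were the CTCF-matching chr2:74964476-74964625 (105 and 86), chr2:75000476-75000625 (103 and 87) and chr2:75588716-75588865 (99 and 87). For scale, the strongest peaks within 500 bp of the TSS of Hoxd13, which shapes the digits, had 115 and 83, those of Hoxd10 114 and 78, Hoxd12 88 and 64, Hoxd11 85 and 65, Hoxd9 87 and 66, Hoxd8 79 and 66, Hoxd1 76 and 50, and the start shared by Hoxd3 and Hoxd4 75 and 55. Evx2, the homeobox gene beside Hoxd13, had 58 and 36. Lnpk, which shapes the endoplasmic reticulum, had 130 and 104, and Mtx2, of the mitochondrial import machinery, 117 and 80. In replicate 2 the highest of the HoxD gene starts, 83 at Hoxd13, lay below the 104 of the strongest distal telomeric peak and the 85 of the strongest distal centromeric peak, while in replicate 1 Hoxd13 lay above both.

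The first and second peaks below are printed as the strongest of each desert away from gene starts, the third as the peak in 4930441J16Rik with a CTCF match, and the fourth as a strong peak that held none of the words searched; all are on the plus strand of mm10, and capitals mark matches to the words searched, on either strand. The first has an AP-1 and a MEIS match, the second a TEAD and an E-box match, the third a CTCF and a MEIS match, and the fourth has none.
chr2:74066776-74066925: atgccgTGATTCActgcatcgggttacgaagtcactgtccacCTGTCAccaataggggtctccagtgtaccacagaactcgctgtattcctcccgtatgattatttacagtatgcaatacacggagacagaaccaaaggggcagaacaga
chr2:75029396-75029545: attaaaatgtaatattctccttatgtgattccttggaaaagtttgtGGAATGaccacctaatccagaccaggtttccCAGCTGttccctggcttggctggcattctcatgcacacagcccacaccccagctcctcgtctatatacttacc
chr2:74300396-74300545: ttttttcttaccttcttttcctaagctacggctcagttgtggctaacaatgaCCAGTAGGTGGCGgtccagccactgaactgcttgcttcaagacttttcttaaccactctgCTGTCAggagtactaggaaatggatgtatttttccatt
chr2:75000476-75000625: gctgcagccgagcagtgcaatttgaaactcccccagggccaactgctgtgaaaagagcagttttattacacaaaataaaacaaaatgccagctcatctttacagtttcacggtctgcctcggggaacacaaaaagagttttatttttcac

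The share of peaks that recurred was close in the 2 deserts. In replicate 1, 54 of 79 centromeric peaks (68.4%, exact 95% interval 56.9 to 78.4%) and 85 of 126 telomeric peaks (67.5%, 58.5 to 75.5%) recurred, against 61.2% of all peaks and 59.8% of peaks over 1 kb from any TSS. In replicate 2, 52 of 84 (61.9%, 50.7 to 72.3%) and 84 of 131 (64.1%, 55.3 to 72.3%) recurred, against 65% and 63.2%. The difference between the deserts was −0.89 points in replicate 1 and 2.22 points in replicate 2, a mean of 0.66 ± 2.20 (SD, n = 2), within the spread between the libraries. Among peaks at or above the list median it was −5.47 points, and without peaks within 1 kb of a TSS −0.37 points. The replicate 1 shares stood above the background and the replicate 2 shares near it. All 4 intervals were wide, and each included both background shares of its library. They cover the sampling of peaks only.

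Recurrence rose with signal in both deserts, as it did over all peaks. With each list cut into 4 parts by signal, in the lowest part of replicate 1 4 of 15 centromeric and 2 of 12 telomeric peaks recurred, against 23.7% of all peaks. In the highest part 12 of 13 and 30 of 32 recurred, against 94.4%. In the third part 17 of 20 centromeric but 36 of 46 telomeric peaks recurred, against 76.2%. In replicate 2 the third part gave 21 of 23 and 34 of 45, against 80.0%. In the second part the direction differed between libraries. Replicate 1 gave 21 of 31 centromeric and 17 of 36 telomeric peaks, and replicate 2 gave 10 of 22 and 17 of 33. Within these parts the centromeric peaks recurred in a higher share in 5 of the 8, with few peaks in each and no test run. Signal was matched only by part and could still differ between the deserts inside one.

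**Figure D4:**
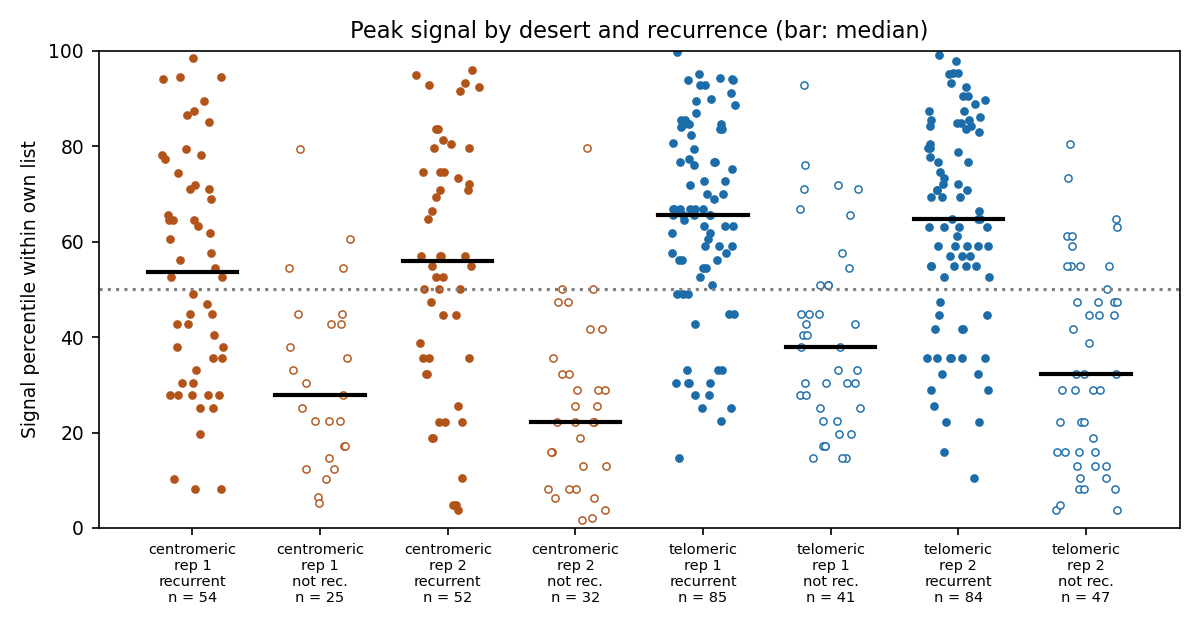
Signal of each desert peak as a percentile within its own list (vertical axis), by desert, replicate and recurrence, with points spread sideways for legibility, a bar at each median and a dotted line at 50. In each of the 4 pairs of columns the recurrent peaks have the higher median (53.6 against 27.8, 56.0 against 22.2, 65.7 against 38.0 and 64.7 against 32.3), with wide overlap.

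Peaks that did not recur numbered 25 and 32 in the centromeric and 41 and 47 in the telomeric desert. Their median percentiles were 27.8 and 22.2 on the centromeric side and 38.0 and 32.3 on the telomeric side. The strongest of them lay beside peaks of the other library. In the centromeric desert these were chr2:73952636-73952785 in replicate 1 (signal 68) and chr2:73952856-73953005 in replicate 2 (50), which lay 0.22 kb apart and failed to overlap. The strongest in the telomeric desert, chr2:75029596-75029745 of replicate 1 (99), lay in a hotspot of replicate 2, 0.18 kb from its nearest peak. That of replicate 2, chr2:75209396-75209545 (51), shared 30 bp with a replicate 1 peak, under the overlap required.

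Peak starts in both lists fell on a grid of 20 bp, and 16 of 54 centromeric and 25 of 85 telomeric pairs had identical coordinates, with a median offset of 20 bp and a largest of 60 bp in each desert, which is the largest offset that the overlap rule and the grid allow. Signals of the paired peaks had a Pearson r of 0.90 and a Spearman correlation of 0.74 over the 54 centromeric pairs and 0.88 and 0.77 over the 85 telomeric pairs. These are correlations across sites of the same 2 libraries, given as a description.

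Hotspots, the broader regions of enrichment that the authors called around the peaks, were slightly wider in the telomeric desert when all members were taken, and narrower there among members at or above their list's median signal. Those overlapping a member had a median width of 220.5 and 194 bp on the centromeric side and 242 and 209 bp on the telomeric side, a ratio of 1.09 ± 0.01 (SD, n = 2). With only the members at or above the list median the ratio was 0.82 in replicate 1 and 0.89 in replicate 2. All hotspots of the series that held a peak had medians of 238 and 218 bp, and those of distal peaks 223 and 204 bp. Hotspots of at least 500 bp numbered 8 and 7 (10.8% and 8.43%) in the centromeric and 13 and 11 (11.2% and 8.94%) in the telomeric desert. Among all hotspots that held a peak they made up 14.9% and 11.6%, and among those of distal peaks 9.73% and 6.82%. The desert shares thus lay below the first background and above the second, a difference that was not tested. The hotspot value, a deposited −log10 q-value with a ceiling of 100, reached that ceiling in 25.7% and 24.1% of the centromeric and 30.2% and 25.2% of the telomeric hotspots. Among all hotspots that held a peak it did so in 33.0% and 28.8%.

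The widest centromeric hotspot of replicate 1 spanned 1302 bp (chr2:74300116-74301417) around the CTCF-matching peak in 4930441J16Rik, and the hotspot of replicate 2 there spanned 549 bp. In replicate 2 the widest was 563 bp (chr2:74392950-74393512). The widest telomeric hotspot was 1480 bp at the start of Hnrnpa3 in replicate 1 (chr2:75657823-75659302), where the widest of replicate 2 was 822 bp. In replicate 2 it was 1207 bp in an intron of 2600014E21Rik (chr2:75208635-75209841), where the widest of replicate 1 was 801 bp. The second widest telomeric hotspot of replicate 2, 895 bp (chr2:75376147-75377041), was 842 bp in replicate 1, so the libraries were far apart at some of these places and close at others.

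Most members lay outside every annotated gene: 93.7% and 95.2% of the centromeric and 73.0% and 77.9% of the telomeric peaks. The telomeric desert is crossed by 2600014E21Rik, which spans 179 kb or 22.9% of it and held 27 and 25 peaks, 21.4% and 19.1% of those in the desert. Peaks were therefore about as dense inside that gene as in the desert as a whole. At its 5′ end lay chr2:75138516-75138665 (63 and 41), 252 bp from the TSS, and beside it, at the start of the divergent long noncoding RNA gene Gm13652, the CTCF-matching chr2:75138076-75138225 (89 and 61). The other members within 1 kb of a TSS lay at Gm28640 (signal 44 in replicate 1 and 22 in replicate 2, a pair that did not recur) and, in replicate 1, at Gm13667 (28 and 32), Gm13655 (46) and 2 inner starts of 2600014E21Rik (31 and 34). Of these the Gm13667 peak of 32 and the 2600014E21Rik peak of 34 recurred, with replicate 2 signals of 22 and 28 at centres just over 1 kb from the TSS.

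Of the 12 sequence words searched on both strands of the recurrent peaks, the one that set the deserts furthest apart was CAATAAA, a word bound by HOX proteins of the posterior groups. It was present in 8 of 54 centromeric peaks (14.8%, exact 95% interval 6.62 to 27.1%) and in 4 of 85 telomeric peaks (4.71%), against 2.94% of all recurrent peaks and 3.52% of those over 1 kb from any TSS. In windows 1 kb beside the same peaks it was present in 0 of 54 and in 1 of 85, and in 3.05% of such windows beside all recurrent peaks. The median GC content was lower in the centromeric (45.3%) and telomeric peaks (46.7%) than over all recurrent peaks (50.7%) or the distal ones (48.7%); its part in these shares was not tested. The word was singled out after its values were seen. The sites are printed in the direction of the word, which is in capitals, first the 8 centromeric ones and then the 5 telomeric ones, since chr2:75244696-75244845 holds a pair.
chr2:73911391-73911397 minus: gagagttacCAATAAAgttgttaca
chr2:73951796-73951802 plus: actatgcacCAATAAAactttattt
chr2:73971508-73971514 minus: tttcatcatCAATAAAtcagggatt
chr2:74032853-74032859 minus: gcacagagcCAATAAAgagaatgtc
chr2:74075701-74075707 minus: taacttaacCAATAAAagatagccc
chr2:74081604-74081610 minus: tttataaagCAATAAAaacacttgc
chr2:74190866-74190872 plus: agagacttcCAATAAAagccgtggg
chr2:74349778-74349784 plus: ttgtggaggCAATAAAgaaacttct
chr2:75112877-75112883 minus: ttcccaaaaCAATAAAactggagac
chr2:75220953-75220959 plus: ggacgcagaCAATAAAagcatattt
chr2:75244764-75244770 minus: tttatagacCAATAAAgagaaaatt
chr2:75244802-75244808 minus: ctcttctccCAATAAAgggtgtgtt
chr2:75494387-75494393 plus: ttcttcagaCAATAAAatgccaaag

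The centromeric peaks with this word ranged in signal from 25 to 130 in replicate 1 and from 15 to 90 in replicate 2, with medians of 47.5 and 34, and the telomeric ones from 33 to 56 and from 26 to 47, with medians of 50.5 and 34. Their median percentile was 55.2 in each desert, below the 88.6 and 83.9 of the peaks with a CTCF match. On the telomeric side the peaks with a CTCF match were the more spread, from 27.6 to 94.7. Those with the posterior HOX word ran from 42.7 to 73.4 there and from 7.51 to 97.2 on the centromeric side. The highest with this word was the Atp5g3 start.

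The homeodomain word TAATTA was present in 9.26% of centromeric and 5.88% of telomeric recurrent peaks, against 2.40% of all. The 5 centromeric peaks include an overlapping pair, chr2:74153516-74153665 and chr2:74153556-74153705, which may hold the same site. In the windows 1 kb beside the peaks the word was present in 0 of 54 on the centromeric side, below the share in the peaks. On the telomeric side it was present in 9.41% of the windows, above the share in the peaks. E-box matches (CAGCTG, a word of basic helix-loop-helix factors) were at 14.8% and 20%, around the 18.1% of all recurrent peaks, and TEAD matches (GGAATG) at 16.7% and 12.9% against 12.2%. The word of RUNX, the factors of bone and cartilage maturation (TGTGGTT), was present in 1 centromeric and 1 telomeric peak, 1.85% and 1.18% against 3.94%, while 6 and 7 of the windows beside them held it. AP-1 (TGANTCA) was at 3.70% and 7.06% against 5.78%, MEIS (TGACAG) at 9.26% and 8.24% against 10.8%, and PBX-HOX (TGATTNAT) at 3.70% and 2.35% against 2.15%. The GLI word (GGGTGGTC) was in 1 centromeric peak, the SOX word (ACAATGG) in 1 telomeric peak and the T-box word (AGGTGTGA) in 1 telomeric peak. Over all recurrent peaks these words were in 0.41%, 1.56% and 0.47%. No word of the 12 was found in 22 of 54 centromeric and 38 of 85 telomeric peaks. The share without any word was not computed over all recurrent peaks, so these counts have no background.

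**Figure D5:**
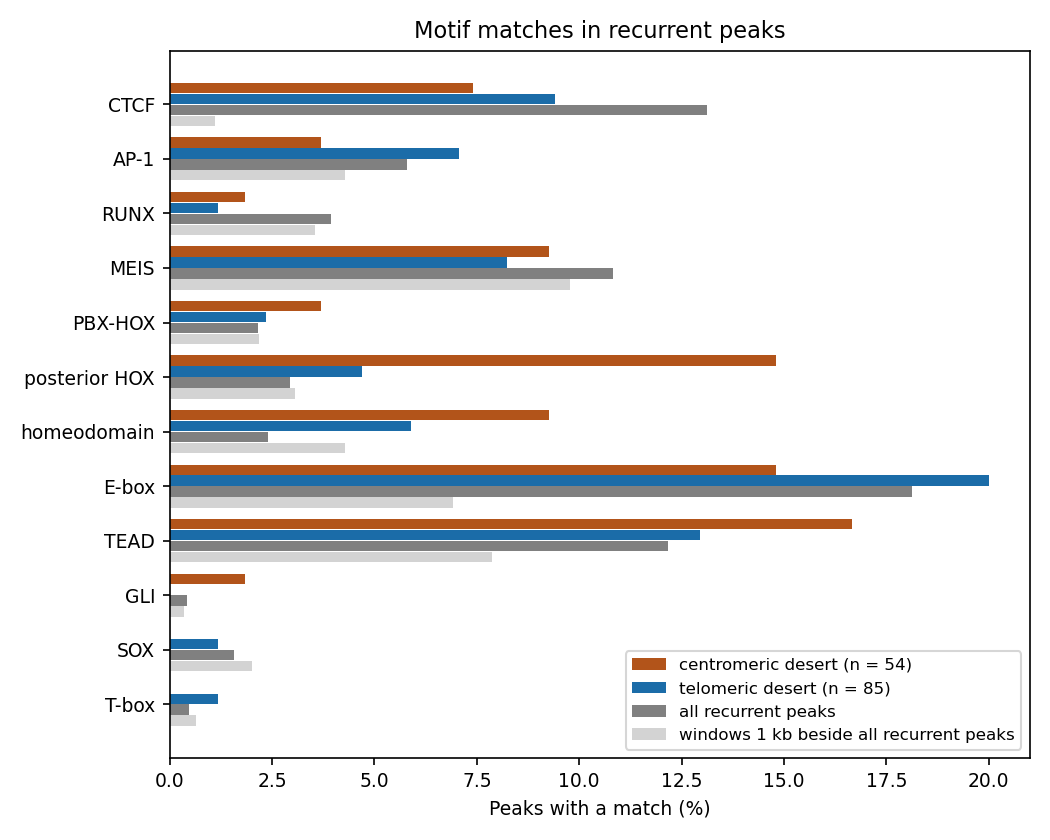
Percentage of recurrent peaks with a match to each of the 12 words (horizontal axis), for the centromeric desert, the telomeric desert, all recurrent peaks and the windows 1 kb beside all recurrent peaks. The posterior HOX word stands out in the centromeric desert (14.8% against 2.94% of all), and CTCF is lower in both deserts (7.41% and 9.41%) than over all recurrent peaks (13.1%).

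The tissue label was checked at gene starts. All 8 limb genes looked up (Prrx1, Twist1, Sox9, Col2a1, Myod1, Trp63, Hoxd13 and Hoxa13) had a peak within 500 bp of a TSS in both libraries. Among genes of other tissues, Ins2 had a peak in both libraries (33 and 32), Alb in replicate 1 (19) and Neurod1 in replicate 2 (27), and Myh6 and Sftpc had none.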

How the data were processed

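DNase-seq was carried out on 1 group of 2 libraries of embryonic mouse limb. For each library the authors deposited peaks, all those used 150 bp wide, with a whole-number signal per peak, and hotspots with a −log10 q-value capped at 100. Per the file headers, each list comes from filtered alignments of 1 library to mm10; the sources used here do not give the aligner, caller, filters or signal scale. Peaks on the autosomes and sex chromosomes were used.

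Deserts were the stretches between coding genes of GENCODE M21. Signals were compared within a list or as percentiles. A peak recurred at 50% overlap; hotspots counted at 1 bp overlap with a member. Words were matched on both strands of RefSeq GRCm38 sequence, CTCF by a degenerate core pattern with at most 1 mismatch. Exact (Clopper-Pearson) 95% intervals cover sampling of peaks only. The code was tested on simulated data. Python 3.11.15, pandas 2.3.3, NumPy 2.4.6 and SciPy 1.17.1 were used.

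Named peaks were the 5 strongest recurrent ones per desert, the strongest that did not recur, those with a CTCF match, and the extremes of width, step, chain and edge; named genes bound the deserts, form HoxD or start within 1 kb of a member. Members, lists, words and rules were chosen with earlier results of these data known. Alternatives covered the signal cut, starts, overlap rule, trimmed ends, hotspots for peaks and each library left out.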

Additional observations from a re-analysis of the deposited data

How the results depend on the processing

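Of 31 alternative values, 20 kept their direction and moved by less than the spread between the libraries or the interval, 7 moved further and 4 reversed. The count of 20 overstates how stable the results were. Leaving out 1 of 2 libraries always moves a mean by less than their SD, so for density, signal, width and spacing that outcome was fixed. Every hotspot centred in a desert held a peak, so taking all of them could not change the width ratio. Peaks at or above the list median gave a telomeric to centromeric density ratio of 1.73 and a spacing ratio of 0.57. They also reversed the signal difference to −0.81 points, where the cut itself removes the weaker peaks, the recurrence difference to −5.47 points and the hotspot width ratio to 0.85; the cause of the last 2 was not tested. Without peaks within 1 kb of a TSS the recurrence difference was −0.37 points and the width ratio 1.07. The density ratio was 1.19 with hotspots in place of peaks and 1.25 with 50 kb removed from both ends of each desert. Requiring only that a peak's centre lie in a hotspot of the other library gave a recurrence difference of 3.69 points. With no mismatch allowed, 100% of 7 CTCF matches faced the cluster. Over all desert peaks of a single library, recurrent or not, an alternative chosen after seeing the data, the shares facing the cluster were 91.7% and 92.3% (11 of 12 and 12 of 13), and the posterior HOX word was in 12.7% and 10.7% of centromeric against 6.35% and 5.34% of telomeric peaks. Each such set contains that library's recurrent peaks, so these shares rest largely on the same sites as the main values and could move little. The same holds for recurrent peaks at the coordinates of replicate 2 (11 of 12 facing the cluster). Recurrence cannot be computed from 1 library. With 2 libraries and no read counts, precision is limited and peaks that were not called cannot be read as closed. Each comparison of the deserts was made within a library; no replicate block could be added, since there is only 1 group.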
